A study of Mus musculus with 4 samples.

Results

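The E2F transcription factors and the retinoblastoma proteins that restrain them were examined in sorted retinal cells of newborn mice. The family comprised 10 genes, E2f1 to E2f8, Rb1 and Rbl1, taken by symbol from the 21828 genes that could be analyzed, and each had a single line in every gene table. By the labels the mice were FVB/N, while the study's methods name ICR mice and give no strain for the transgenic line. The mice carried a transgene in which a fragment of the Hes1 promoter drives destabilized EGFP, and they received no treatment. Retinal cells were sorted at P1 and P4 (postnatal days 1 and 4) into cells with EGFP (pHes1_EPC) and cells without it (pHes1_ENC), and total RNA of each fraction at each age gave 1 library. All 4 libraries therefore share the strain, the transgene and the tissue, and differ in the fraction and the age. The transgene reports activity of the Hes1 promoter and not a cell type, and the number of retinas behind each library is not given in the sources used here. With 1 library in each group, the variation among animals or sorts is unknown, and no test was made.

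E2F proteins bind DNA together with a DP partner and control genes that a cell needs to copy its DNA and divide. E2F1, E2F2 and E2F3 are known mainly as activators, E2F4 and E2F5 as repressors that work with pocket proteins, E2F6 as a repressor that does not bind pocket proteins, and E2F7 and E2F8 as atypical repressors that need no DP partner and switch E2F targets off again late in S phase. The pocket proteins RB (gene Rb1), p107 (Rbl1) and p130 (Rbl2) hold E2Fs in check until cyclin-dependent kinases phosphorylate them, and in the retina this control is known for its part in the exit of progenitors from the cell cycle.

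Levels are FPKM, in which fragments are scaled to transcript length in kilobases and to 1e6 mapped fragments, so they are already divided by transcript length and genes can be set side by side within a library. The difference of a gene is the log2(FPKM + 1) of one library minus that of another, and a difference above 1 or below -1 was taken as a call. Ratios are of the FPKM themselves, and the range given with a ratio divides the ends of the 95% Cufflinks intervals, so that it covers counting error alone. The FPKM of the analyzed genes summed to between 277433 and 372016 in a library, and 11458 to 12108 genes reached an FPKM of 1. The width of the intervals corresponds to about 45.4 reads for E2f8 in P4 pHes1_ENC, the thinnest value of the family, and to about 3005 reads for E2f1 in P1 pHes1_EPC. E2f1 in 3 libraries and E2f4 in 2 had an FPKM slightly above the upper end of its own interval, so the ratio ranges of these genes can lie below the values they belong to.

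The fractions were checked against marker genes. All 8 Müller glia and Notch markers, Hes1 and Glul among them, were more than 2-fold higher in pHes1_EPC at both ages. Of the 5 progenitor markers 3 were called higher at P1 and 4 at P4. The other 2 at P1 had intervals wholly below those of pHes1_ENC, with differences of -0.95 for Pax6 and -0.10 for Rax. The 7 rod markers summed to 689.7 FPKM in pHes1_ENC and 42.4 in pHes1_EPC at P1, and to 3717 and 718.7 at P4. Microglia markers summed to 1.86 FPKM in pHes1_ENC and 8.15 in pHes1_EPC at P1, where 2 of the 5 were called higher in pHes1_EPC, as most E2F genes were, and at P4 to 6.10 and 8.07, with 0 called. In bulk RNA, fewer cells of a type and less RNA per cell cannot be told apart, and this holds for every difference between the libraries that follows.

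The promoters of the family were read from the RefSeq promoter table of GRCm38.p6, which gives 250 bases before and 50 bases after a start site. It held 9 such windows for 7 of the 10 genes, and each was found exactly once in NCBI37/mm9, the build of the deposited files. E2f4, E2f5 and Rb1 had no entry. The windows were searched on both strands for the E2F words TTTCCCGC, TTTGGCGC, TTTCGCGC and TTTGCCGC, and for TTTGAA, the word of the CHR element of cell cycle genes; the E2F words do not overlap TTTGAA in these windows. An E2F word was present for 4 of the 7 genes, whereas 2.60% of the 27025 genes of the table have one. TTTGAA is much more common, in 20.2% of these genes and 17.9% of the 32851 windows. In the family it was found for E2f2, in the window of its second start, and for E2f3 and E2f8. The sequences that follow are those of Rbl1, E2f7 and E2f8, which passed the threshold between the fractions at both ages and between the ages in both fractions, and of E2f3, whose course with age was opposite in the fractions, with E2F words and TTTGAA, or their reverse complements, in capitals. Each is the 250 bases before the start on the strand of the gene, and none of these overlaps an annotated exon. Rbl1 lies on the minus strand, and its window is at chr2:157030271-157030520.
Rbl1: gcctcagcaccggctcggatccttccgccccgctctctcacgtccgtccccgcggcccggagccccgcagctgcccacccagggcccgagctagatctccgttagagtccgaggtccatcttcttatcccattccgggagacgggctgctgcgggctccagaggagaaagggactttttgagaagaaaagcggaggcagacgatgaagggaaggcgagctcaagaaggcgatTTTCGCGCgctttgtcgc
E2f3 also lies on the minus strand, and the window before its first start is at chr13:30077933-30078182.
E2f3: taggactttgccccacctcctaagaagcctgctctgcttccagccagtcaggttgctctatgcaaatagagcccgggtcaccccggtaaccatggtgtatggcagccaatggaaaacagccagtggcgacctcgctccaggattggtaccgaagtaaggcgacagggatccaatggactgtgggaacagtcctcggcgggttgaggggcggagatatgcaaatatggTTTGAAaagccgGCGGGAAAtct
E2f7 is on the plus strand, with its window at chr10:110182245-110182494.
E2f7: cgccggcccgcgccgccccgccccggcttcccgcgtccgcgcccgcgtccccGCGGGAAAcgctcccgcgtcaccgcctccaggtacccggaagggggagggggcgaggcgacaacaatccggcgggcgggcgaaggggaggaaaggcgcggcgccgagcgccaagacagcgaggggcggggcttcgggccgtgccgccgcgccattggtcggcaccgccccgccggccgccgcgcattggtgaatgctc
E2f8 is on the minus strand, with its window at chr7:56136967-56137216, and it holds TTTGAA but no E2F word.
E2f8: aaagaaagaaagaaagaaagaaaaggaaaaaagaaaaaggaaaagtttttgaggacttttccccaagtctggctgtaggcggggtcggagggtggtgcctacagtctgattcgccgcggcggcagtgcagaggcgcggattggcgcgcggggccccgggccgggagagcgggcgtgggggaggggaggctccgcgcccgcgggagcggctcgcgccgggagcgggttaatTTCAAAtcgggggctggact

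In Rbl1 the E2F word TTTCGCGC lay on the strand of the gene at positions -18 to -11 from the start. In E2f3 the word TTTCCCGC lay on the opposite strand at -11 to -4, with TTTGAA at -23 to -18. The word of E2f7, again TTTCCCGC on the opposite strand, was farther away, at -198 to -191. E2f2, on the plus strand with its first window at chr4:135727939-135728238, had TTTGGCGC after the start, at bases 40 to 47 counted from 1 at the start, and the last 22 bases of the window show it.
E2f2: gcggcatatagTTTGGCGCtaa
No E2F word was found in the windows of E2f1, E2f6 and E2f8. The RefSeq start used for E2f1 lies 426 bases inside the deposited gene line, and all 250 bases before it fall in annotated E2f1 exons, so this window does not cover the start of the gene line. The start used for E2f8 is at -555 from the start of its gene line, so its window lies upstream of that line and does not reach it. A match describes the letters in a window and does not show that a factor binds there.

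Most genes of the family were higher in pHes1_EPC. At P1, 7 of the 10 genes had a difference between pHes1_EPC and pHes1_ENC above 1, compared with 6.1% of all genes, and 0 had one below -1, compared with 6.79%. At P4 there were 4 of 10 above 1, compared with 9.85% of all genes, and 0 below -1, compared with 5.42%. The median difference of the members was 1.29 at P1 and 0.91 at P4, and the median over all genes was 0 at both ages. All 10 genes were above an FPKM of 4 in 3 of the libraries, whereas many of the 21828 genes were not expressed, so the background shares include genes that could hardly be called. By counting error alone, the interval in pHes1_EPC lay wholly above that in pHes1_ENC for 9 of 10 genes at P1 and 8 of 10 at P4, compared with 22.1% and 28.3% of all genes. The P4 count holds for FPKM as deposited. Rescaled to the same total, the P4 differences of E2f2 and E2f4 were 0.14 and 0.11, and their intervals overlapped. Closest to the threshold at P1 were E2f6 inside it, at 1.15, and E2f5 outside it, at 0.76. At P4 they were Rbl1 inside, at 1.72, and E2f5 outside, at 0.98.

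**Figure D1:**
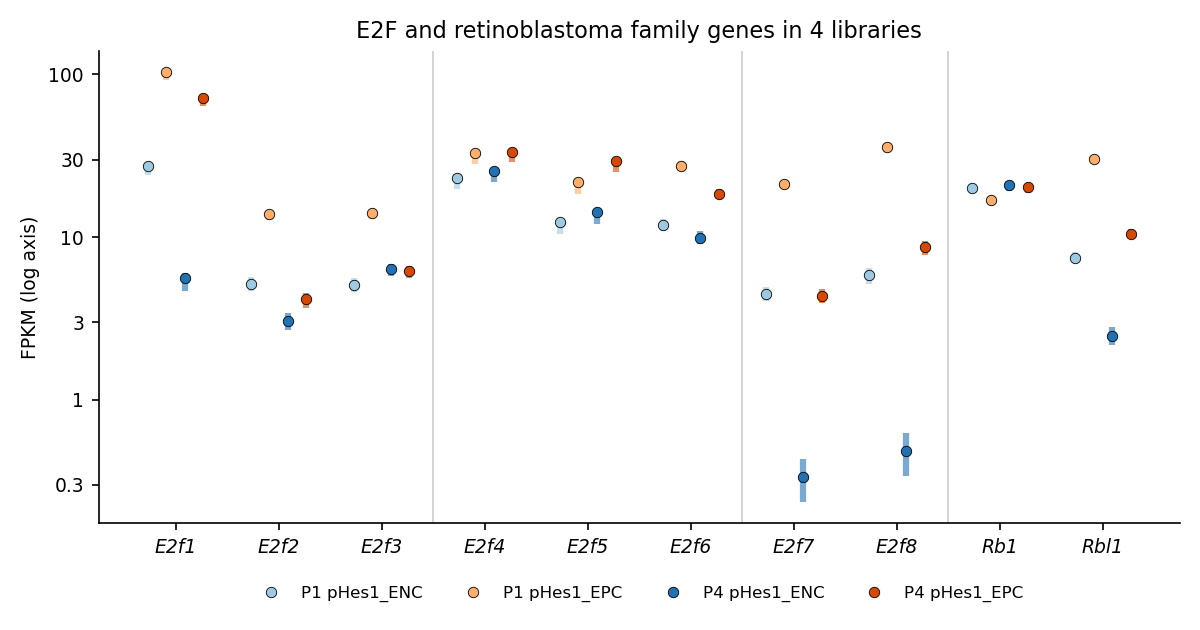
FPKM of the 10 genes in the 4 libraries, on a log axis. Points are the deposited FPKM, bars the 95% Cufflinks intervals (counting error only), and vertical lines separate E2f1 to E2f3, E2f4 to E2f6, E2f7 with E2f8, and the pocket protein genes. E2f7 and E2f8 in P4 pHes1_ENC, at 0.335 and 0.486, lie below all other values, and the 4 values of Rb1 lie between 17.0 and 20.9.

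E2f1, the activator most often tied to S phase entry, was the most abundant gene of the family in 3 of the 4 libraries. At P1 its FPKM was 27.4 in pHes1_ENC and 103.2 in pHes1_EPC, and at P4 it was 5.60 and 72.0. Both pHes1_EPC libraries were thus above both pHes1_ENC libraries, and P4 pHes1_ENC stood lowest by a wide margin. The ratio between the fractions was 3.77 (range 3.39 to 4.13) at P1, while at P4 it was 12.9 (10.7 to 15.0), with a log2 difference of 1.88 at the earlier and 3.47 at the later age. Only 104 of the 21828 genes had a larger difference at P4, and 279 at P1. In pHes1_EPC the level at P4 was 0.698 of that at P1, in pHes1_ENC 0.205. The wider gap between fractions at P4 thus went with a lower level in the negative cells and not with a higher one in the positive cells. Of the 36-base stretches of its transcript, 2.57% also occur in transcripts of other genes, so reads there could be shared.

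E2f2 and E2f3, the other activators, followed a different course. The FPKM of E2f2 was 5.17 in pHes1_ENC and 14.0 in pHes1_EPC at P1, and 3.06 and 4.15 at P4. P1 pHes1_EPC stood above the other 3 libraries. The ratio was 2.70 (2.26 to 3.13) at P1, while at P4 it was 1.36 (1.07 to 1.70), so the fractions were much closer at the later age. E2f3 had an FPKM of 5.09 in pHes1_ENC and 14.1 in pHes1_EPC at P1, and 6.33 and 6.17 at P4. Its fractions differed at P1, with a ratio of 2.76 (2.32 to 3.20), and had overlapping intervals at P4, where the ratio was 0.974 (0.817 to 1.16). Between P1 and P4, E2f3 had a difference of -1.07 in pHes1_EPC and 0.27 in pHes1_ENC. Its window with TTTCCCGC beside the start, printed above, is thus that of a gene whose gap between the fractions was present at P1 alone in these libraries as deposited. With FPKM rescaled to the same total, the P4 difference of E2f3 was -0.31, and its P4 intervals no longer overlapped. E2f2 and E2f3 were each expressed well below E2f1 in pHes1_EPC, and their levels in P1 pHes1_EPC, 14.0 and 14.1, did not differ beyond their intervals.

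E2f4, E2f5 and E2f6 had no difference between ages past the threshold in either fraction. E2f4, the main E2F of resting cells, had an FPKM of 23.2 in pHes1_ENC and 32.9 in pHes1_EPC at P1, and 25.4 and 33.5 at P4. Both pHes1_EPC libraries were the higher ones, by a ratio of 1.42 (1.22 to 1.62) at P1 and of 1.32 (1.13 to 1.51) at P4, below the threshold each time. P1 and P4 had overlapping intervals in each fraction as deposited. E2f5, which also partners with p130 and p107, had an FPKM of 12.5 in pHes1_ENC and 21.7 in pHes1_EPC at P1, whereas at P4 it had 14.3 and 29.2. P4 pHes1_EPC was the highest of the 4 libraries, and E2f5 had a difference of P4 minus P1 of 0.41 in pHes1_EPC, the most positive among the members. The ratio between fractions was 1.74 (1.43 to 2.18) at P1, while at P4 it was 2.04 (1.69 to 2.45). E2f5 was thus more than 2-fold higher at P4 by ratio, while its difference of 0.98 on the log2(FPKM + 1) scale missed the threshold.

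E2f6, which represses through Polycomb-type complexes, had an FPKM of 11.9 in pHes1_ENC and 27.5 in pHes1_EPC at P1, and 9.94 and 18.5 at P4. The pHes1_EPC libraries were the higher pair. The ratio was 2.31 (2.02 to 2.68) at P1, while at P4 it was 1.86 (1.59 to 2.20), with differences of 1.15 and 0.84. In pHes1_EPC the level at P4 was 0.673 of that at P1.

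E2f7 and E2f8, the atypical repressors, showed the widest spread over the libraries. The FPKM of E2f7 was 4.50 in pHes1_ENC and 21.3 in pHes1_EPC at P1, and 0.335 and 4.38 at P4. E2f8 had 5.88 in pHes1_ENC and 35.7 in pHes1_EPC at P1, and at P4 it had 0.486 and 8.72. For both genes P1 pHes1_EPC was highest and P4 pHes1_ENC lowest, and the other 2 libraries lay between them, with overlapping intervals for E2f7. E2f7 had a ratio between the fractions of 4.73 (4.03 to 5.43) at P1, while at P4 it was 13.1 (9.15 to 20.4). E2f8 had a ratio of 6.08 (5.09 to 7.02) at P1, while at P4 it was 17.9 (12.4 to 27.8). The pseudocount hid most of this widening, because the P4 pHes1_ENC levels were below 1, and the differences were 2.02 and 2.01 for E2f7 and 2.42 and 2.71 for E2f8. At P1 only 44 of the 21828 genes had a larger difference than E2f8. From P1 to P4 the level of E2f7 was multiplied by 0.205 in pHes1_EPC and by 0.0744 in pHes1_ENC, and that of E2f8 by 0.244 and 0.0827. The promoter windows of the pair, printed above, differ in the words marked, with an E2F word in that of E2f7 and TTTGAA in that of E2f8. The word CCAAT, also searched for and present for 41.1% of the genes with a window, was found in both. The E2f8 window does not reach the start of the deposited gene line, so the bases next to that start were not searched. A noncoding gene on the opposite strand, Gm2788, covers 5.03% of the exon bases of E2f8, and the reads were not marked by strand.

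Among the pocket protein genes, Rb1 barely differed between the libraries and Rbl1 differed widely. Rb1 had an FPKM of 20.1 in pHes1_ENC and 17.0 in pHes1_EPC at P1, and 20.9 and 20.3 at P4. P1 pHes1_EPC was lowest, and the other 3 libraries lay close together. As deposited, Rb1 was the only member with a lower interval in pHes1_EPC, with a ratio of 0.846 (0.757 to 0.951) at P1, while at P4 the ratio was 0.969 (0.870 to 1.08) and the intervals overlapped. With FPKM rescaled to the same total, its P4 difference was -0.33 instead of -0.04, and the P4 intervals no longer overlapped. Exons of Lpar6 and Rcbtb2 on the opposite strand cover 6.78% and 8.11% of the exon bases of Rb1, and reads from them cannot be told apart. Rbl1, which encodes p107, had an FPKM of 7.50 in pHes1_ENC and 30.3 in pHes1_EPC at P1, and 2.48 and 10.5 at P4. Its libraries stood in the same order as those of E2f8, with P1 pHes1_EPC highest and P4 pHes1_ENC lowest. The ratio was 4.05 (3.57 to 4.61) at P1, while at P4 it was 4.21 (3.47 to 5.17), so it was much alike at both ages. From P1 to P4 its level was multiplied by 0.345 in pHes1_EPC and by 0.331 in pHes1_ENC. The Rbl1 window with TTTCGCGC close to the start is printed above. Rbl2, the remaining pocket protein gene and not one of the 10, had an FPKM of 7.06 in pHes1_ENC and 7.29 in pHes1_EPC at P1, and at P4 it had 8.62 and 8.95, with overlapping intervals between the fractions at both ages.

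**Figure D2:**
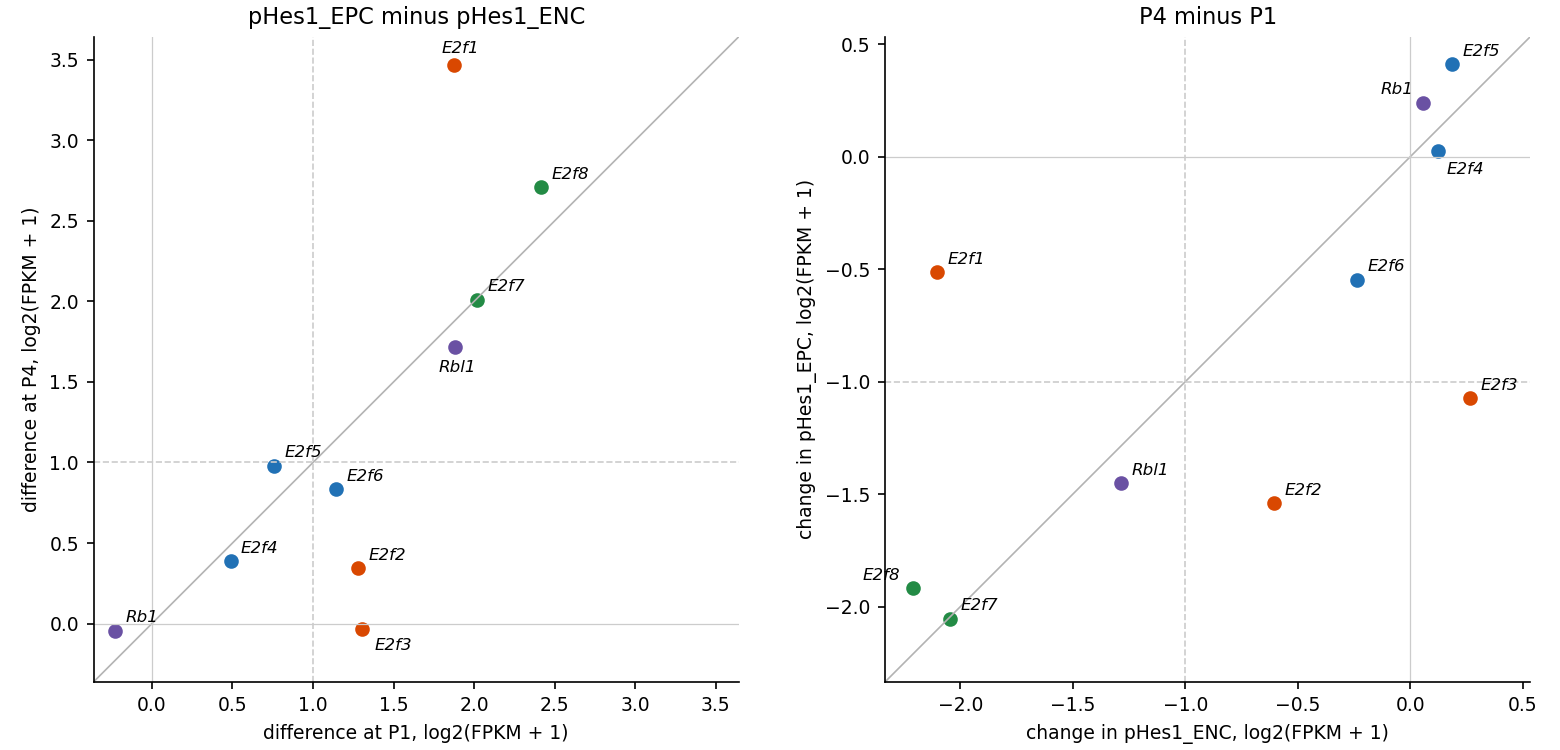
Differences of log2(FPKM + 1) for the 10 genes, pHes1_EPC minus pHes1_ENC at P1 against P4 (left) and P4 minus P1 in pHes1_ENC against pHes1_EPC (right). Orange marks E2f1 to E2f3, blue E2f4 to E2f6, green E2f7 and E2f8, and purple Rb1 and Rbl1, with dashed lines at 1 and -1 and equality as the diagonal. E2f1 stands above the diagonal on the left, with 1.88 at P1 and 3.47 at P4, and E2f3 stands below it on the right, with 0.27 in pHes1_ENC and -1.07 in pHes1_EPC.

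The change with age was taken within each fraction, and these comparisons use the same libraries as those between fractions. In pHes1_EPC, 5 of the 10 genes (E2f2, E2f3, E2f7, E2f8 and Rbl1) had a difference of P4 minus P1 below -1, compared with 2.57% of all genes, and 0 had one above 1, compared with 4.17%. In pHes1_ENC, 4 of 10 (E2f1, E2f7, E2f8 and Rbl1) were below -1, compared with 5.94% of all genes, and 0 above 1, compared with 2.77%. The all-gene balance depends on the scaling: in pHes1_EPC 911 genes were above 1 and 560 below -1 as deposited, but 723 and 1417 with the same total, and 614 and 777 with median-of-ratios scaling. The counts of called members were the same under these scalings. E2f7, E2f8 and Rbl1 were more than 2-fold lower at P4 in both fractions. E2f1 was past the threshold in pHes1_ENC, at -2.10, and not in pHes1_EPC, at -0.51. E2f2 was the reverse, at -0.61 in pHes1_ENC and -1.54 in pHes1_EPC. Rb1 had differences of 0.24 in pHes1_EPC and 0.06 in pHes1_ENC, and E2f4 of 0.02 and 0.13. The signs of these last values depend on the scaling of the libraries: the difference of Rb1 in pHes1_EPC was -0.08 with FPKM rescaled to the same total, and that of E2f4 reached -0.31. The median difference of the members was -0.81 in pHes1_EPC and -0.42 in pHes1_ENC.

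The order of levels within a library shows how the makeup of the family differed. In P1 pHes1_ENC, E2f1 came first, followed by E2f4 and Rb1, whose intervals overlapped, then by E2f5 and E2f6, which also overlapped, and Rbl1. E2f8, E2f2, E2f3 and E2f7 came last, each overlapping the next. In P1 pHes1_EPC, E2f1 was followed by E2f8, then by E2f4, Rbl1 and E2f6, each overlapping the next, and by E2f5 and E2f7, which overlapped; Rb1 came after all of these and before E2f3 and E2f2. E2f1 was below 5 other members in P4 pHes1_ENC, where E2f4, Rb1, E2f5 and E2f6 led with no overlap between neighbours, E2f3 overlapped E2f1, E2f2 overlapped Rbl1, and E2f8 and E2f7 stood last with overlapping intervals. In P4 pHes1_EPC, E2f1 led again, ahead of E2f4 and E2f5, which overlapped, and of Rb1 and E2f6, which also overlapped. Rbl1, E2f8 and E2f3 followed without overlap, and E2f7 and E2f2, whose intervals overlapped, came last.

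At P1 the summed FPKM of the 8 E2F genes was 95.6 in pHes1_ENC and 270.4 in pHes1_EPC. At P4 the sums were 65.4 and 176.7. As deposited, the ratio between the fractions was nearly the same at both ages, 2.83 (2.46 to 3.24) at P1, while at P4 it was 2.70 (2.29 to 3.14). This sameness depends on the scaling. To reach the same total, FPKM were multiplied by 3.60 in pHes1_ENC and 3.39 in pHes1_EPC at P1. At P4 the factors were 3.29 and 2.69, which lowers the P4 ratio more than the P1 ratio. The classes behind the sum behaved differently. E2f1, E2f2 and E2f3 together held 39.4% of it in P1 pHes1_ENC (35.6% to 43.4% by the Cufflinks intervals) and 48.5% (45.4% to 50.7%) in P1 pHes1_EPC. At P4 they held 22.9% (20.0% to 27.3%) in pHes1_ENC and 46.6% (43.3% to 49.4%) in pHes1_EPC. The share of the activators was thus lowest in P4 pHes1_ENC, where E2f1 alone accounted for 8.56%, compared with 28.7% to 40.8% in the other libraries. E2f4, E2f5 and E2f6 held 75.8% of the sum in P4 pHes1_ENC and 30.4% to 49.7% elsewhere. As deposited, their own summed level barely differed between ages, with a ratio of P4 to P1 of 0.989 in pHes1_EPC and 1.04 in pHes1_ENC. With FPKM rescaled to the same total, the differences of P4 minus P1 in pHes1_EPC were -0.31 for E2f4, 0.09 for E2f5 and -0.89 for E2f6. E2f7 and E2f8 held 21.1% of the sum in pHes1_EPC and 10.9% in pHes1_ENC at P1. At P4 they held 7.42% and 1.25%.

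The balance of the pocket proteins shifted in the same libraries. Rb1 made up 72.8% of the summed FPKM of Rb1 and Rbl1 in P1 pHes1_ENC and 89.4% in P4 pHes1_ENC, but 35.9% (32.9% to 37.9%) in P1 pHes1_EPC and 66.0% in P4 pHes1_EPC. P1 pHes1_EPC was the only library in which Rbl1 exceeded Rb1, with 1.78 times its FPKM. With Rbl2 included, Rb1 held 58.0% in pHes1_ENC and 31.1% in pHes1_EPC at P1, and at P4 it held 65.3% and 51.1%. The FPKM of E2f1 was 6.07 times that of Rb1 in P1 pHes1_EPC and 3.55 times in P4 pHes1_EPC. In pHes1_ENC it was 1.36 times that of Rb1 at P1 and 0.268 times at P4, so the order of the pair was inverted in that library alone.

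**Figure D3:**
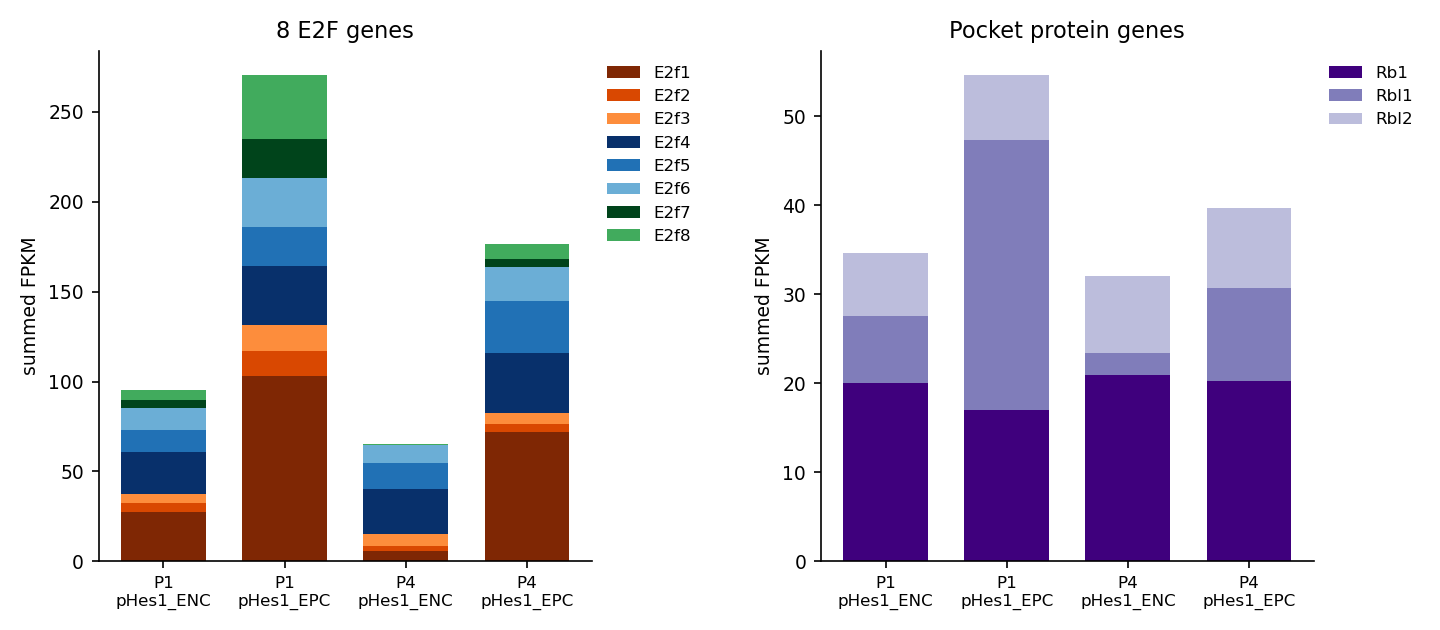
Summed FPKM of the 8 E2F genes (left) and of the 3 pocket protein genes (right) in each library, stacked by gene, with a linear axis from 0. The E2F sum is 65.4 in P4 pHes1_ENC, most of it E2f4, E2f5 and E2f6, and 270.4 in P1 pHes1_EPC, where E2f1 is the largest block. On the right the Rb1 block is of similar height in all libraries and the Rbl1 block varies from 2.48 to 30.3.

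The partners of the family were described from lists that were not chosen by the values of single genes but were written with earlier results of these data known. Both DP genes, which encode the partners needed by E2F1 to E2F6, differed between libraries. Tfdp1 had an FPKM of 40.0 in pHes1_ENC and 87.9 in pHes1_EPC at P1, and at P4 it had 42.3 and 43.8, so that P1 pHes1_EPC alone stood out. Tfdp2 had 19.7 in pHes1_ENC and 39.1 in pHes1_EPC at P1, and at P4 it had 8.07 and 33.8, with P4 pHes1_ENC the lowest. Over the 4 libraries Tfdp1 thus resembled E2f3 and Tfdp2 shared the low P4 pHes1_ENC value of E2f1. Of the 5 genes of the MuvB core, which joins E2F4 or E2F5 and p107 or p130 in the DREAM complex, 1 was called higher in pHes1_EPC at P1 (Lin54, 1.05) and 0 at P4, next to 6.1% and 9.85% of all genes. Lin9, Lin37, Lin52 and Rbbp4 ranged from -0.32 to 0.56 at P1 and at P4 from -0.11 to 0.39, with Lin37 and Lin52 at the lower ends. Of 7 genes for partners of E2F6, 0 were called at either age, beside 6.1% and 9.85% of all genes called higher and 6.79% and 5.42% called lower. They ranged from -0.55 (Max) to 0.63 (L3mbtl2) at P1 and from -0.64 (Ring1) to 0.97 (Cbx3) at P4, with Mga, Pcgf6 and Rnf2 in between.

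Upstream of the pocket proteins stand the cyclins and kinases of G1, of which 6 of 8 were called higher in pHes1_EPC at P1, compared with 6.1% of all genes, and 4 of 8 at P4, compared with 9.85%. None of the 8 was called lower, compared with 6.79% and 5.42% of all genes. Ccnd1, the cyclin whose kinases phosphorylate RB, had an FPKM of 243.4 in pHes1_ENC and 1406 in pHes1_EPC at P1, and at P4 it had 28.5 and 531.8, so that it too was lowest in P4 pHes1_ENC. Ccne1, Ccne2 and Cdk2, which complete that phosphorylation and of which cyclin E is itself an E2F target, differed by 2.29, 2.09 and 2.26 at P1, and at P4 by 2.41, 0.87 and 2.19. Cdk6 and Ccnd3 were called at P1, at 1.63 and 1.13, and had 0.28 and 0.75 at P4, whereas Cdk4 had 0.43 at P1 and was called at P4, at 1.24. Ccnd2 stayed below an FPKM of 1 in every library. The median of the 8 was 1.86 at P1 and 1.05 at P4, next to 1.29 and 0.91 for the E2F and pocket protein genes.

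Genes for the inhibitors of those kinases were less uniform. Of 7, 2 were called higher at each age (all genes, 6.1% and 9.85%), and Cdkn1c was called lower at P1 (all genes, 6.79%). Cdkn2c, which encodes p18, had an FPKM of 10.5 in pHes1_ENC and 48.1 in pHes1_EPC at P1, and at P4 it had 3.52 and 32.6, an order of libraries like that of E2f1. Cdkn1c, which encodes p57, had a difference of -1.09 at P1 and 1.30 at P4. Cdkn1a had 1.29 and 0.87, and Cdkn1b, the p27 gene, 0.46 and 0.88. Cdkn2d had 0.65 and 0.38. Cdkn2a and Cdkn2b were at an FPKM of 1.17 or less in all libraries.

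Target genes were listed for S phase and for G2/M, and every gene of both lists was higher in pHes1_EPC. All 20 S phase targets were called higher at P1 and all 20 at P4, against 6.1% and 9.85% of all genes, with medians of 2.17 and 1.99, above the medians of the E2F genes themselves. Rrm2, a subunit of ribonucleotide reductase, had differences of 2.46 and 3.70, Tk1 of thymidine salvage 2.66 and 3.32, and the helicase subunit Mcm3 2.49 and 3.29. Mcm7 was lowest on the average of both ages, at 1.25 and 1.09. The G2/M set holds 15 genes, among them Mybl2 and Foxm1, which encode B-MYB and FOXM1. The others are known as genes that these factors activate and DREAM represses. All 15 were called as well, with medians of 1.84 at P1 and 3.18 at P4. Mybl2 had the largest difference of the set at P1, at 2.18, and the smallest at P4, at 1.65. Birc5 had 2.06 and 3.74, Aurkb 2.00 and 3.63, Top2a 1.90 and 3.45, and Aurka, the lowest on the average of both ages, 1.40 and 1.86. From P1 to P4, 17 of the 20 S phase targets were called lower in pHes1_EPC and 13 in pHes1_ENC, compared with 2.57% and 5.94% of all genes. For the G2/M set these counts were 9 and 15 of 15. Of the germline genes that E2F6 is known to silence, Smc1b, Slc25a31, Tuba3a, Tuba3b and Mael had an FPKM of 0.14 or less in every library, and Smc1b, Tuba3b and Mael were listed at 0 in some. Stag3 had 2.08 in pHes1_ENC and 0.786 in pHes1_EPC at P1, and 3.75 and 0.851 at P4, so that it was lower in pHes1_EPC at both ages. A listed 0 is not always a low level in these tables, since the widely used genes Eif4a1 and Eif4g2 are listed at 0 in 1 library each with the Cufflinks status FAIL. The zeros of the germline genes and of Cdh5 carry the status OK.

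**Figure D4:**
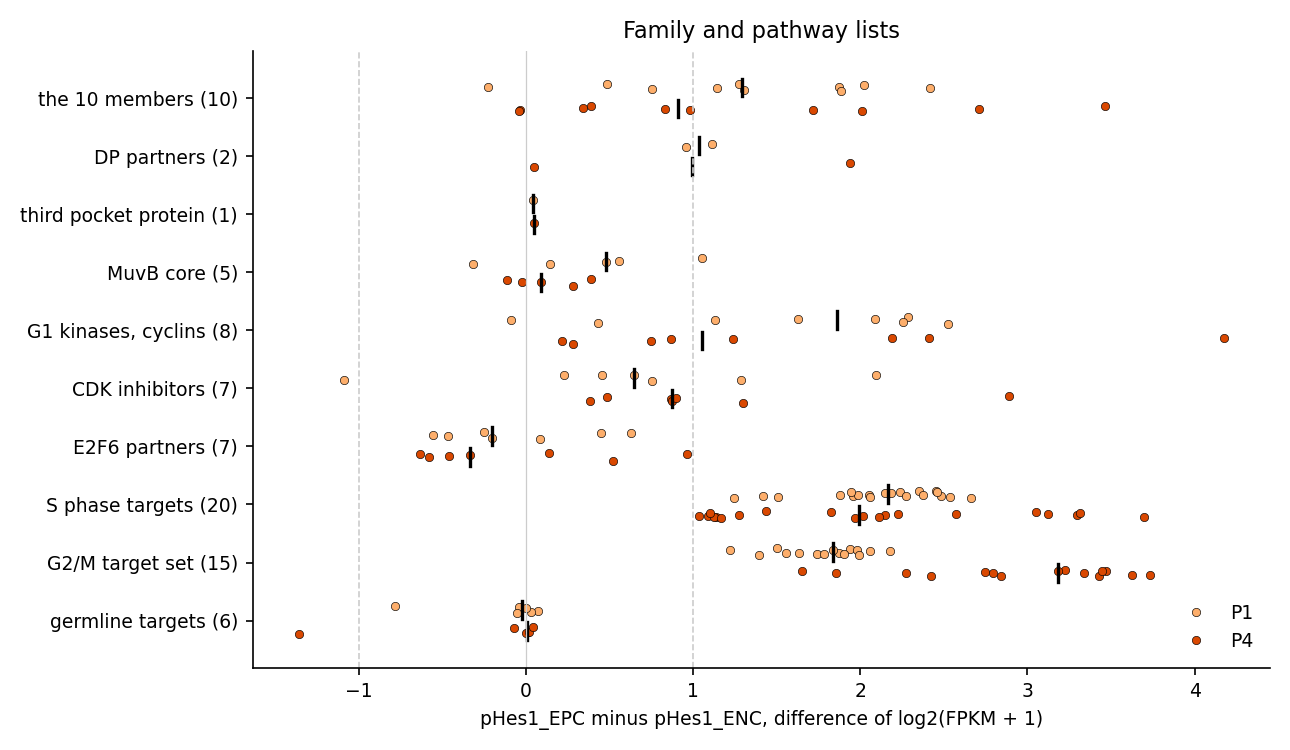
Difference of log2(FPKM + 1) between pHes1_EPC and pHes1_ENC at P1 (light) and P4 (dark) for the 10 members and the genes of each pathway list, with the number of genes in brackets. Points are genes, black bars medians and dashed lines the threshold. All points of the S phase and G2/M lists lie above 1, whereas the E2F6 partners lie between -0.64 and 0.97.

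The markers of other cell types that the fractions could hold were set beside these differences. Rod markers were lower in pHes1_EPC, with 6 of 7 called at P1 and all 7 at P4. P4 pHes1_ENC, where E2f1, E2f2, E2f6, E2f7, E2f8 and Rbl1 were lowest, had the highest rod sum. Amacrine and horizontal cell markers summed to 210.1 FPKM in P1 pHes1_ENC and to 16.0 or less in the other libraries. Erythroid markers summed to 107.6 in P1 pHes1_ENC and 321.7 in P4 pHes1_ENC, and to 0.306 and 3.79 in the pHes1_EPC libraries. Of the 4 endothelial markers Kdr was called higher in pHes1_EPC at both ages, and Cldn5 was called lower at P1, at -1.95, and had 0.50 at P4. Pecam1 and Cdh5 had an FPKM of 0.142 or less in every library, and Cdh5 was listed at 0 in both P4 libraries. Ganglion cell markers summed to 24.7 FPKM at most. The part of these cell types in the differences of the E2F and pocket protein genes was not tested.

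For each member the genes with the most similar course were found among the 10463 genes whose FPKM reached 5 in some library, by the root mean square difference of centred log2(FPKM + 1) over the 4 libraries. With 4 points many genes lie close, so this is a description. Nearest to E2f1 were Cdh20 (0.06), Myb (0.09) and Mxd3 (0.10). E2f2 was followed most closely by Blm (0.02), Dnmt1 (0.05) and Atad5 (0.07), all of which act on replicating DNA. The nearest gene to E2f3 was its own partner gene Tfdp1 (0.08), then Lin54 (0.10) and Pold3 (0.12). E2f4 lay nearest to Hnrnpl (0.02), E2f5 to Txndc12 (0.02) and E2f6 to Atf5 (0.01). E2f7 was closest to the histone gene Hist1h1b (0.07), Kntc1 (0.09) and Espl1 (0.12). E2f8 was closest to Dtl (0.11), Mcm6 (0.15) and Esco2 (0.16), and Rbl1 to Usp44 (0.05), Ncapg2 (0.08) and Plk4 (0.08). For Rb1 it was Prmt6 (0.01). Within the family, E2f4 and E2f5 were 0.26 apart and E2f7 and E2f8 0.28, but these distances stand differently among all genes. E2f8 ranked 39 in nearness to E2f7, and E2f7 ranked 27 to E2f8, whereas E2f5 ranked 2827 to E2f4, and E2f4 ranked 1160 to E2f5. E2f1 lay nearest to E2f8 (0.50) among the members.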

How the data were processed

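RNA of 4 fractions was sequenced as single-end reads of 36 bases. Per the labels and the study's methods, the authors aligned them to NCBI37/mm9 with TopHat2 2.0.8b, allowing a read to match 50 places at most, and deposited FPKM from Cufflinks 2.1.1 with 95% intervals. Read counts were not used here. Of 22558 symbols, 730 small RNAs were left out, and 235 symbols with several lines were represented by the one of highest summed FPKM. Differences of log2(FPKM + 1) were called above 1 or below -1, without a test. The study asked for more than a 2-fold higher level and states no pseudocount, so this rule is stricter for low genes. Reads were approximated by taking the interval as 2 SD of a Poisson count on each side.

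Members and lists were chosen with earlier results of these data known. Lists of up to 8 genes are named whole, and of longer ones the 3 genes with the highest and the 1 with the lowest mean difference. The 10 alternatives concerned the pseudocount, filters, scaling, intervals, status, repeated lines and small RNAs. Python 3.11.15, numpy 2.4.6, pandas 2.3.3 and matplotlib 3.10.9 were used. The calling of differences was tested on simulated counts with Poisson error alone, with changes planted only in well expressed genes.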

Additional observations from a re-analysis of the deposited data

Results flagged for a closer look

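E2f3 differed in direction between the fractions. From P1 to P4 its difference of log2(FPKM + 1) was -1.07 in pHes1_EPC and 0.27 in pHes1_ENC. The deposited intervals did not overlap between the ages in either fraction. In pHes1_ENC the gap was narrow, with a P1 upper end of 5.59 and a P4 lower end of 5.73. These intervals overlap once FPKM are rescaled to the same total. The pHes1_ENC difference stayed positive under the alternatives, from 0.17 to 0.45. With 1 library in each group, the difference between the fractions was not tested.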

How the results depend on the processing

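Counts of called members, medians and the share of E2f1 to E2f3 stayed close to the reported values under the alternatives in 137 of the 140 values recomputed. The exceptions were medians: with FPKM rescaled to the same total the median difference was 0.66 at P4 and -1.18 between ages in pHes1_EPC, and the latter was -1.01 after quantile normalization. Many of the 140 values could not move. Each member has a single line, the status OK and an FPKM above 1 in the higher library of each comparison. The FPKM filter, status, repeated-line and small RNA alternatives therefore returned the reported values. Scaling by a single factor per library cannot change the share. The count above 1 at P4 was 5 with the smaller or no pseudocount, which was taken as close to 4. The median difference at P4 over the 12941 genes whose FPKM reached 1 in some library was 0.15 as deposited, -0.10 with the same total and -0.02 with median-of-ratios scaling. That between ages in pHes1_EPC was 0.17, -0.11 and 0.03. Over all genes, 2150 were above 1 and 1184 below -1 at P4 as deposited, 2015 and 2170 with the same total and 1541 and 1552 after quantile normalization. Between ages in pHes1_ENC, 604 and 1297 became 755 and 1011 after quantile normalization. Without a pseudocount the P4 differences of E2f7 and E2f8 were 3.71 and 4.17, and that of E2f5 was 1.03, past the threshold. Signs of differences under the threshold turned with scaling for E2f4 and Rb1 between ages in both fractions. Overlap of the P4 intervals between the fractions also changed with the same total for E2f2, E2f3, E2f4 and Rb1. Of 240 single-gene results 51 moved and 0 called ones changed sign. These 240 include the results under the FPKM filter, which could not move. The share could not use the pseudocount, filter or interval alternatives. Intervals cover counting error only, and E2f7 and E2f8 in P4 pHes1_ENC rest on about 47.5 and 45.4 reads. No paired analysis was possible because each group had 1 library.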
